A study of Mus musculus with 4 samples.

Results

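The intervals described here are those that a CHD4 CUT&Tag peak list from mouse cells names for Tns3, Dlgap1 or Ccnl1. They were chosen by the gene symbol in the list, and the 3 genes were picked because many intervals carry their names. Rows with the same chromosome, start and end were treated as 1 interval. This gave 21 of 1849 intervals: 8 for Tns3, 7 for Dlgap1 and 6 for Ccnl1. Such numbers are rare in the list, where 84.7% of the 1517 named genes have 1 interval and 6 genes, or 0.396%, have 6 or more. The genes just outside that number, with 5 intervals each, were Creb3l2, Irf2bpl and Pvt1. Because interval number chose the genes, it is a description here and carries no test.

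The samples came from wild-type C57BL/6 mice and are labelled spermatogonial: 2 with an antibody against CHD4 (Abcam ab70469) and 2 with an IgG antibody (Abcam ab6728, labelled rabbit anti-mouse IgG H&L with HRP). No genotype, treatment or age differs between the groups in the labels, which state no age. Each assay used 100000 cells of digested testes, and the sources used here do not say how spermatogonia were separated from the rest. A list of binding sites holds no expression, so the labelled cell type could not be checked by marker genes. The deposited list is 1 call over the samples, with no value for any single sample, so no value below has an error between replicates. The fold, the −log10 q, the annotation class and the distance to a transcript start are the authors' values. All coordinates are mm10, counted from 1.

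CHD4 is the ATPase motor of the NuRD complex, which slides nucleosomes and removes acetyl groups from histones, and it acts at promoters and at distal regulatory elements. Tns3 encodes tensin 3, an adaptor that links integrins to actin at focal adhesions. Dlgap1 encodes a scaffold protein of the postsynaptic density, best known from neurons. Ccnl1 encodes cyclin L1, a partner of CDK11 kinases in transcription and pre-mRNA splicing.

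None of the 21 intervals touched a RefSeq promoter window, which runs from 250 bases before to 50 bases after a transcript start. Over the whole list 361 intervals, or 19.5%, overlapped such a window. The windows of the 3 genes (RefSeq, GRCm38.p6, the assembly behind mm10) are printed 5′ to 3′ on the strand of the gene because they mark the starts that the clusters leave free. That of Gm36746, a long non-coding RNA gene beside the Dlgap1 cluster, is added as the window nearest to any of the 21 intervals. Gm35039, which Ccnl1 intervals overlapped, has no window in this set, so no distance to its start is given. Capitals mark the dinucleotide CG, the base step of CpG islands.
Tns3, chr11:8664486-8664785, minus strand: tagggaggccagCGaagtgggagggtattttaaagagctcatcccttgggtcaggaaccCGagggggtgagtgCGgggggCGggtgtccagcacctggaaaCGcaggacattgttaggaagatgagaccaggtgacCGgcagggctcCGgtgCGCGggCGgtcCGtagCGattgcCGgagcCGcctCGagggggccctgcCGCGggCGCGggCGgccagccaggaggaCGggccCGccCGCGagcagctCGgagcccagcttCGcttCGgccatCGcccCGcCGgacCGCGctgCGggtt
Ccnl1, chr3:65958200-65958499, minus strand: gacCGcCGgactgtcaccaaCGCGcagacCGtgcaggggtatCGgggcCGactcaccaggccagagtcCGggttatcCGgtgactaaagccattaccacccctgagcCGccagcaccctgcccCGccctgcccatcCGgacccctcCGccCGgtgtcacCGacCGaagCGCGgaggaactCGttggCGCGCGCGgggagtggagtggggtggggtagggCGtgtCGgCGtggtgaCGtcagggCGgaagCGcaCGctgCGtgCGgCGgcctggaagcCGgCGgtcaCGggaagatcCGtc
Dlgap1, chr17:69968823-69969122, plus strand: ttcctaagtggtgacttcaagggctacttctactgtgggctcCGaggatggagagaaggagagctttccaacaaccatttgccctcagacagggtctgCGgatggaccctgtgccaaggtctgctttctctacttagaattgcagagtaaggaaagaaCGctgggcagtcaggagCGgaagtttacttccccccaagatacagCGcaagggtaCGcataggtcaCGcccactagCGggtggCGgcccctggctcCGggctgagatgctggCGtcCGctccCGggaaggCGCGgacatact
Gm36746, chr17:70717628-70717927, minus strand: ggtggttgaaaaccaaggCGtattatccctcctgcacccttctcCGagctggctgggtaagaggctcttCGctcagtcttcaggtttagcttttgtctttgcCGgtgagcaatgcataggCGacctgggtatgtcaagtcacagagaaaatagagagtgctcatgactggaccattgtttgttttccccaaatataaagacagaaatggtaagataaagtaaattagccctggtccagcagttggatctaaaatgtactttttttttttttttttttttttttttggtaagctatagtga

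The Tns3 window holds 33 CG and that of Ccnl1 37, more than in 91.4% and 94.4% of the 32851 RefSeq windows. The Dlgap1 window has 15 CG and the Gm36746 window 5. The median was 7 CG over all windows and 21 in the 462 windows that an interval overlapped. The CG-rich Tns3 and Ccnl1 windows thus exceeded the median of the windows with an interval, although neither had one. The interval closest to the Tns3 window was 20.3 kb away, that closest to the Ccnl1 window 28.6 kb, and that closest to the Dlgap1 window 751 kb. The other listed start of Dlgap1, with 7 CG in its window at chr17:70561497-70561796, was 158 kb from the nearest interval. The Gm36746 window was 1.98 kb from the opening Dlgap1 interval.

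The 3 sets differed in where they lay relative to the gene that names them. All 7 Dlgap1 intervals overlapped Dlgap1, 6 of the 8 Tns3 intervals overlapped Tns3, and none of the 6 Ccnl1 intervals overlapped Ccnl1. Together 13 of 21 lay in the named gene, beside 54.4% of the whole list. An interval had to share at least 1 base with the span of the gene in the RefSeq gene table. By the authors' annotation 12 were intronic, 3 exonic, 5 distal intergenic and 1 was a promoter interval. In the whole list 26.7% were intronic, 4.43% exonic, 24.7% distal intergenic and 42.2% promoter intervals.

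**Figure D1:**
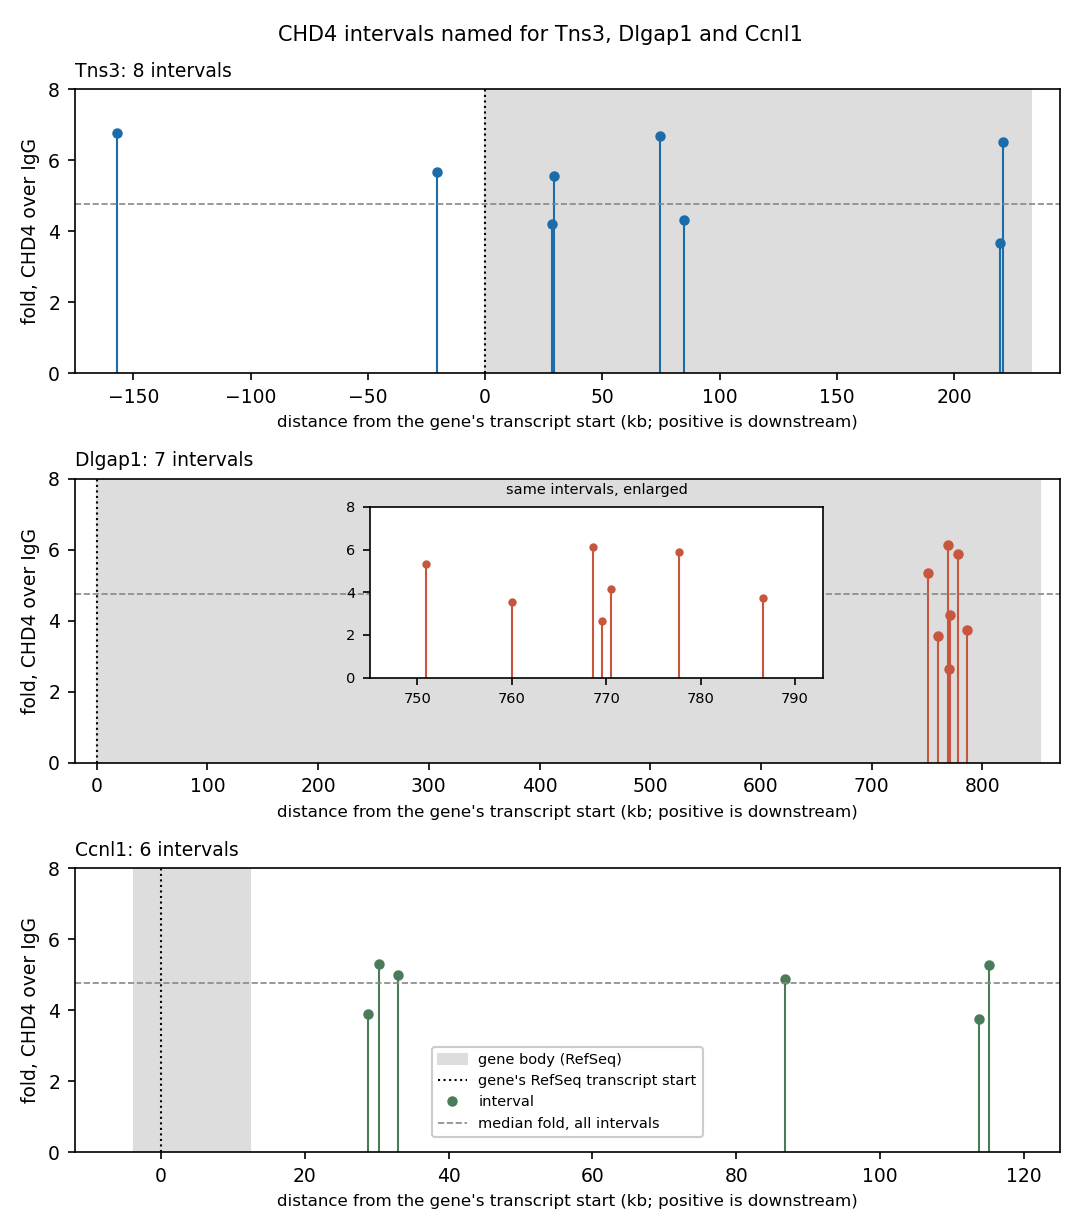
Fold of CHD4 over IgG (vertical axis) at each interval named for Tns3, Dlgap1 and Ccnl1, against its distance in kb from the RefSeq transcript start of the gene (dotted line; positive is downstream); grey marks the gene body and the dashed line the median fold of all intervals, 4.76. The 8 Tns3 intervals are spread over the gene and upstream of it, the 7 Dlgap1 intervals sit together near the 3′ end of the gene, and the 6 Ccnl1 intervals lie past the end of the gene.

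Tns3 lies on the minus strand of chromosome 11 (8431652 to 8664758, 233 kb), and its intervals span 378 kb, from the end of the gene to far upstream of its start. At the 3′ side, 2 exonic intervals lay next to each other. The interval at 8443532 to 8444049, in exon 27 of 31 of transcript ENSMUST00000020695, had a fold of 6.50 from 28 CHD4 fragments at the summit over an IgG expectation of 1.00. The number of CHD4 fragments and the IgG expectation were recovered from the deposited fold and −log10 p, and the expectation is in fragments of the IgG library. The next, at 8444870 to 8445208 in exon 26, had a fold of 3.68 from 32 fragments over 3.0. Both were named for Tns3 through the start of a 17.6 kb transcript, ENSMUST00000129074, which neither overlapped, and they lay 24.6 and 23.5 kb past that start.

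Further towards the 5′ end, at 36.4% and 32.1% of Tns3 from that end, 2 intervals lay upstream of another short transcript. The interval at 8579797 to 8580003 was the only 1 of the 21 with the authors' promoter class, 0.676 kb upstream of the start of ENSMUST00000134823. It lay 84.6 kb inside the gene, counted from the RefSeq start, so its promoter class refers to that 33.4 kb transcript alone. Its fold was 4.31 from 58 fragments over 5.0, the most fragments of the Tns3 set. At 8589587 to 8590084, in intron 3 of 30, the fold was 6.68 from 19 fragments over 0.369. The higher fold of the latter thus came with fewer CHD4 fragments and a lower IgG expectation.

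Intron 1 of Tns3 held 2 intervals, 29.5 and 28.6 kb downstream of the RefSeq start. Their folds were 5.54 from 23 fragments over 0.960 (8634873 to 8635291) and 4.19 from 27 fragments over 2.00 (8635808 to 8636096). The remaining 2 lay outside the gene, on its upstream side. At 8685045 to 8685411, 20.7 kb upstream, the fold was 5.66, and the 16 fragments over 0.388 have an exact 95% Poisson interval of 9.15 to 26.0, the interval given in brackets after other fragment numbers. The most distant, at 8821498 to 8821755, had the highest fold of the Tns3 set, 6.76, and its highest −log10 q, 8.06. It held 45 fragments (32.8 to 60.2) over 2.00. It lay 157 kb from the Tns3 start but 3.94 kb from the boundary of Pkd1l1, a polycystin-like membrane protein gene. The list names no interval for Pkd1l1. The promoter window nearest to this interval was that of Gm36772, at 21.7 kb, so no window lay at the Pkd1l1 boundary. Between the outermost Tns3 intervals the gene table lists Gm36772, a long non-coding RNA gene, and the pseudogene Gm11990, and neither was overlapped.

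Dlgap1 lies on the plus strand of chromosome 17 (69969073 to 70821413) and, at 852 kb, is longer than 99.6% of protein-coding genes. Its 7 intervals took up 35.9 kb of it, between 88.1% and 92.3% of the way from the 5′ end. All 7 were named through the start of ENSMUST00000233780, a 10.3 kb transcript at the 3′ end of the gene, which none overlapped. The deposited distances of 53.3 to 88.9 kb are therefore upstream of that start, and the same intervals lay 751 to 787 kb downstream of the first RefSeq start of the gene. The annotation put 6 of the 7 in 1 intron, intron 8 of 13 of ENSMUST00000133983. The last was in exon 1 of 3 of ENSMUST00000181546, a transcript that the annotation does not pair with a gene identifier.

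Of the 3 sets, Dlgap1 had the widest range of fragment numbers. At 70728870 to 70729329 the summit held 114 CHD4 fragments (94.0 to 137), at least as many as at 98.8% of intervals, over an IgG expectation of 13.0. Its fold of 3.56 was low for the list while its −log10 q of 8.54 was the highest of the 21. At 70738529 to 70738765, 53 fragments (39.7 to 69.3) stood over 8.0 and gave a fold of 2.64, the lowest of the 21, with a q of 0.0465. An IgG expectation of 8 or more was found at 131 of the 1849 intervals, and 2 of them were these. In the same cluster the highest fold, 6.13, was at 70737491 to 70737915, with 41 fragments over 2.03. It was followed by 5.87 at 70746710 to 70746900, with 24 fragments over 0.923. At 70719902 to 70720146 the fold was 5.33, with 35 fragments over 2.00. The 2 others, at 70739474 to 70739678 and 70755574 to 70755799, had folds of 4.15 and 3.73 from 17 and 24 fragments, with q of 0.0433 and 0.0419. Thus 3 of the 7 passed the caller's threshold narrowly, since the largest q of the list was 0.0492.

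No other gene lies between the outermost Dlgap1 intervals in the gene table. The cluster is flanked by 2 long non-coding RNA genes inside Dlgap1, Gm36746 at 2.23 kb and Gm41609 at 9.90 kb. The nearest interval of another name was 97.1 kb downstream, at the promoter of Tgif1, a homeobox repressor of TGF-beta signalling (70852907 to 70853131). It had a fold of 3.72 from 41 fragments over 4.0. On the other side the nearest was 4197 kb away, so the 751 kb of Dlgap1 before the cluster held none in the list.

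Ccnl1 is short, 16.1 kb on the minus strand of chromosome 3 (65945908 to 65962029), and all 6 of its intervals lay past its 3′ end, by 16.3 to 103 kb. They fell in the sequence between Ccnl1 and Lekr1, whose end was 6.28 kb from the outermost interval. All were named through the start of a 1.22 kb transcript, ENSMUST00000149729, inside Ccnl1. Near the gene stood 3 intervals. That at 65925113 to 65925547 was the only 1 of the 21 with more than 1 summit, a feature of 9.84% of all intervals. Its summits, 66 and 256 bases after the interval start, had folds of 4.62 and 5.0 from 30 and 21 fragments over 2.00 and 1.00. The highest fold of the Ccnl1 set, 5.30, was at 65927866 to 65928072, with 26 fragments over 1.29. Both overlapped Gm35039, a long non-coding RNA gene of 4.03 kb, and were distal intergenic by the authors' annotation. At 65929332 to 65929634 the fold was 3.89 from 34 fragments over 3.0.

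The 3 other Ccnl1 intervals were 74.4 kb or more past the gene, in introns of ENSMUST00000195243, which the annotation does not pair with a gene identifier and where the gene table lists no gene. At 65842802 to 65843390 the fold was 5.28 from 15 fragments (8.40 to 24.7) over 0.406, in the widest interval of the 21, 589 bp. The neighbouring interval at 65844432 to 65844648 had 3.76 from 24 fragments over 2.00, with a q of 0.0384. At 65871296 to 65871549 the fold was 4.88 from 13 fragments (6.92 to 22.2), the fewest of the 21, over 0.346. That is the lowest IgG expectation in the list, shared by 131 of the 2066 summits, so it reads as a floor rather than a local count. Folds over this value, or over the nearby 0.369, 0.388 and 0.406 at other intervals of the 21, rest on very little IgG signal. Folds in the Ccnl1 set ranged 1.41-fold from lowest to highest, against 1.84 for Tns3 and 2.33 for Dlgap1. The nearest interval of another name, 183 kb away, contained the start of Mir8120, a microRNA gene beside Lekr1, with a fold of 4.50 from 45 fragments over 3.51. It lay at 65659055 to 65659380, next to the far boundary of Lekr1 at 65659539.

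The 3 sets differed in spacing. The 7 Tns3 intervals that have a next neighbour were separated by 820, 134588, 9583, 44788, 516, 48948 and 136086 bp, from the 3′ side of the gene onward. The Dlgap1 gaps were 8723, 8161, 613, 708, 7031 and 8673 bp. Of these 6 gaps, 4 were thus of similar size, between 7.03 and 8.72 kb, and the other 2 parted a group of 3 intervals. The Ccnl1 gaps were 1041, 26647, 53563, 2318 and 1259 bp. The median gap was 44.8 kb for Tns3, 7.60 kb for Dlgap1 and 2.32 kb for Ccnl1, beside 10.3 kb for the 314 gaps between intervals of other genes. All neighbouring intervals of the list, whatever their name, had a median gap of 402 kb. Gaps under 2 kb made up 6 of the 18 in the 3 sets, 2 in each gene, and 19.1% of those of other genes. With intervals of a gene closer than 10 kb counted as 1 locus, Tns3 had 5 loci, Ccnl1 3 and Dlgap1 1.

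**Figure D2:**
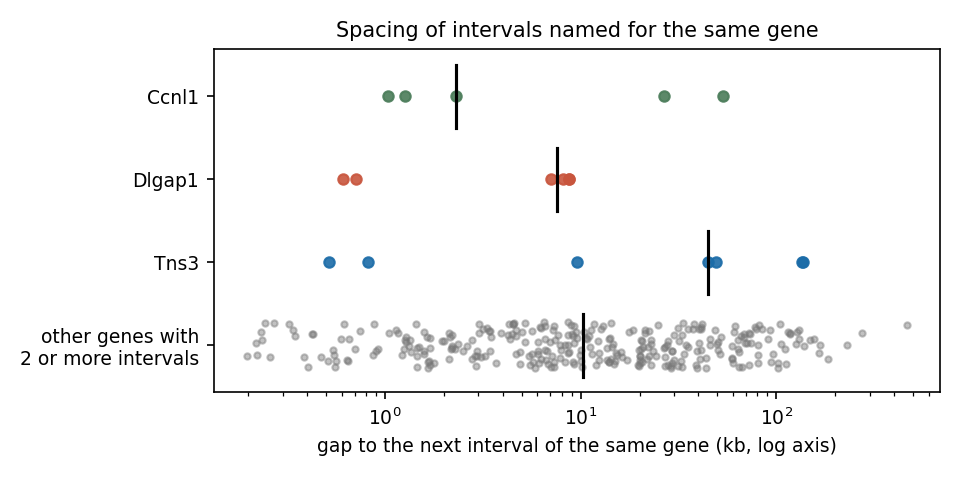
Gap in kb, on a log axis, between neighbouring intervals named for the same gene, for Ccnl1, Dlgap1 and Tns3 and for all other genes with 2 or more intervals; each point is 1 gap, black bars are medians, and the vertical scatter of the other genes carries no value. Each of the 3 genes has 2 gaps under 2 kb, and the Tns3 gaps reach 136 kb.

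Naming by the nearest transcript start can split or gather neighbours, so intervals were also joined by position alone. With neighbours joined at gaps up to 50 kb, the list formed 1458 chains. The 7 Dlgap1 intervals formed 1 chain, and 3 chains of the list held more intervals. Tns3 fell into 3 chains of 2, 5 and 1 intervals, and the chain of 5 spanned 106 kb. Ccnl1 fell into 2 chains of 3. In all, 16 chains held 5 or more intervals, and the largest held 10. At gaps up to 20 kb the Dlgap1 chain still held 7, no chain was larger, and 3 chains, this one included, were of that size. Tns3 was then in 5 chains of at most 2.

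In each of the 6 pairs of neighbours under 2 kb apart, the interval with more CHD4 fragments had the lower fold. It also had the higher IgG expectation. In the Tns3 pairs, 32 fragments went with a fold of 3.68 beside 28 with 6.50, and 27 with 4.19 beside 23 with 5.54. In the Dlgap1 group of 3, 53 fragments went with 2.64 beside 41 with 6.13 on the left and 17 with 4.15 on the right. In the Ccnl1 pairs, 24 went with 3.76 beside 15 with 5.28, and 34 with 3.89 beside 26 with 5.30. The exact Poisson intervals of the fragment numbers overlapped in 5 of the 6 pairs, all but the Dlgap1 pair of 53 and 17. Among 60 such pairs of other genes the interval with more fragments had the lower fold in 28, or 46.7%, and the higher IgG expectation in 48, or 80.0%. These values are partly tied together by the call. Where IgG was high, a summit with few CHD4 fragments would have missed the q threshold and been left off the list. The IgG expectation also enters the fold as its divisor. The count in the 3 genes was noticed in the values and rests on 6 pairs, 2 of which share an interval. It is therefore not read as a trait of the 3 genes, and a difference from other genes was not tested.

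**Figure D3:**
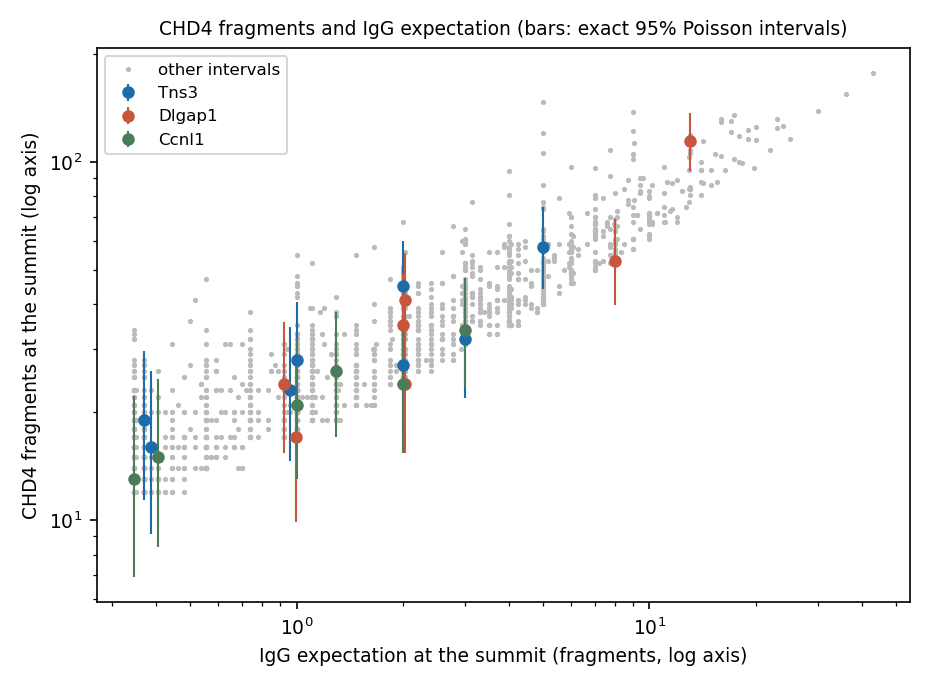
CHD4 fragments at the summit against the IgG expectation there, in fragments, both on log axes, for the intervals of Tns3, Dlgap1 and Ccnl1 and all other intervals (grey); bars are exact 95% Poisson intervals for the CHD4 fragments and cover counting error only. The 21 intervals lie among the others, with 2 Dlgap1 intervals at IgG expectations of 8.0 and 13.0.

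By size and strength the medians of the 21 intervals lay near those of the list, while single intervals were spread over much of its range. Their median fold was 5.0 (lowest 2.64, highest 6.76), beside 4.76 over all intervals, and 12 of 21 exceeded that list median. The share of the list with a fold at or below that of the interval ran from 2.16% to 90.0%. The median of CHD4 fragments was 26 beside 27, and of −log10 q 2.87 beside 2.90. The median width was 289 bp, with a range from 191 to 589 bp, beside 280 bp. The median IgG expectation was 2.00 beside 1.31, with 11 of 21 above the list median. Fewer than 20 CHD4 fragments supported 5 of the 21, beside 25.6% of all intervals. By gene, the median fold was 5.60 for Tns3, 4.94 for Ccnl1 and 4.15 for Dlgap1, and the ranges of the 3 genes overlapped. Without the 1 that the caller adds to both terms of the fold, the medians were 9.96, 8.81 and 7.31, beside 7.72 over all intervals. No test was made of these values, which come from the same call that chose the genes.

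The other genes with 6 or more intervals were Tex14 with 7, and D230017M19Rik and Txndc2 with 6 each. Tex14 and D230017M19Rik had wider intervals, with medians of 983 and 739 bp against 353 bp for Tns3, 237 bp for Dlgap1 and 278 bp for Ccnl1. Intervals covered 12.7% of the Tex14 cluster and 15.1% of the D230017M19Rik cluster, against 5.54% for Dlgap1, 2.31% for Ccnl1 and 0.765% for Tns3. The highest −log10 q was 39.1 at Tex14 and 21.3 at D230017M19Rik, and 8.54 over the 3 genes described here. The Txndc2 set was closer to them, with a median width of 356 bp and 3.84% of its cluster covered. By intervals per 100 kb of cluster, Dlgap1 had 19.5, near the 19.9 of D230017M19Rik, while Ccnl1 had 6.91 and Tns3 2.12. The gene table lists no small nuclear RNA gene within the 3 clusters described here.

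Genes that work with the 3 were counted in lists written for this report. Of all genes, 1329 of 21779 protein-coding genes, or 6.10%, were named for an interval. Tns3, Dlgap1 and Ccnl1 were left out of these counts, since they were chosen for their intervals. Of 29 other tensin and focal adhesion genes 5 were named (17.2%). Tns1, which encodes tensin 1, had 3 intervals within the gene, with folds of 2.70, 5.43 and 3.68. Bcar1, the adaptor p130Cas of integrin signalling, had 4, with folds from 3.23 to 5.38, 2 of them in introns and 2 distal. Actn1, an actin cross-linker, had 2, with folds of 4.0 and 6.80. Its relative Actn4 had 1 of fold 12.2 and Itgb1, the integrin beta 1 chain, 1 promoter interval of fold 4.79. Tns2 and Tns4, the other tensins, had none. Of 24 other postsynaptic scaffold genes 1 was named (4.17%), Dlgap4, a relative of Dlgap1 with 1 intronic interval of fold 4.05. Of 25 other genes for cyclin L and its partners, transcriptional kinases and splicing kinases or factors 1 was named (4.0%). This was Srsf1, a splicing factor with an interval over its start, of fold 2.78 from 56 fragments over 8.0. The lists were written with results of this peak list known, and the counts carry no test.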

How the data were processed

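CUT&Tag, in which an antibody directs a Tn5 transposase to chromatin, was done in 2 CHD4 and 2 IgG samples. Per the submitters' processing notes the authors used MACS2 2.1.2, Bowtie2 2.2.5 and Trim Galore 0.5.0 with mm10. The sources used here do not say how duplicate or multiply mapping reads were treated or how replicates were combined. Per the file headers the authors deposited a fold (a ratio of CHD4 to IgG) and its log2 for each summit. The deposited −log10 p and −log10 q columns have damaged headers and were identified by the caller's column order, and the deposited score equals 10 times −log10 q without decimals.

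An interval took the values of its summit of highest fold. Genes were matched by identifier to the RefSeq table of GRCm38.p6 (1516 of 1517 found), leaving out 340 genes that start before 3 Mb on chromosomes other than Y. CHD4 fragment numbers were solved from fold and −log10 p, taking the fold as scaled fragments plus 1 over the IgG expectation plus 1 and p as Poisson. A scale of 0.429 gave 1 whole-number solution at all 2066 summits, within 0.0005 on −log10 p, and the method was tested on simulated data. Fragments may not be independent molecules, so Poisson intervals cover counting error only. Python 3.11.15, pandas 2.3.3, numpy 2.4.6 and scipy 1.17.1 were used.

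Named were the 3 genes, genes in or next to their clusters, other genes with 6 or more intervals, and list members with an interval. The genes and lists were chosen with earlier results of these data known. No test was made. Alternatives were the summit as unit, stricter thresholds, loci of 10 kb, other overlaps, gap measures, folds and chain gaps.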

Additional observations from a re-analysis of the deposited data

How the results depend on the processing

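Of 36 values under alternative settings, for 15 results on the 3 genes, 20 stayed within the limit (at most 1.5 times for counts, the printed digits for other values) and 16 moved further. Counting summits gave 8, 7 and 7 for Tns3, Dlgap1 and Ccnl1. Keeping intervals at or above the median fold left 5 Tns3, 3 Dlgap1 and 4 Ccnl1 intervals, and q under 0.01, which 77.7% of all intervals passed, left 7, 4 and 4. With 1 interval per locus of 10 kb, Tns3 had 5, Dlgap1 1 and Ccnl1 3. By the span of the assigned transcript instead of the gene, 2 Tns3 and 0 Dlgap1 intervals lay inside. Between midpoints the median spacing was 45.2 kb for Tns3, 7.92 kb for Dlgap1 and 2.64 kb for Ccnl1. Without the 1 that the caller adds, the median ratio of CHD4 to IgG was 9.96, 7.31 and 8.81 in the same order, beside 7.72 over all intervals. The largest chain at gaps up to 20 kb held 2 Tns3 intervals, and at gaps up to 100 kb the Ccnl1 chain held 6. No paired analysis was possible because the list holds no value for any single sample, and for the same reason no replicate could be left out. Depth limits all of these values, with 13 to 114 CHD4 fragments over IgG expectations of 0.346 to 13.0 at a summit. An absence of further intervals says only that none was detectable at this depth.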
